A study of Homo sapiens with 4 samples.

Results

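BCL7A, BCL7B and BCL7C are the 3 members of a family of small accessory subunits of the SWI/SNF (BAF) chromatin remodelling complexes, and they are described here out of 19839 protein-coding genes on the autosomes and X. They were chosen by measured values, since earlier results of these libraries showed a SMARCB1 ChIP-seq peak at an end of each gene, so their SMARCB1 peaks are a description and carry no test. The gene records (hg38) are chr12:122021884-122062044 on the plus strand for BCL7A (NCBI gene 605), and chr7:73536356-73557690 for BCL7B (9275) and chr16:30833626-30894077 for BCL7C (9274), both on the minus strand. The SMARCB1 peaks and the H3K27ac peaks were taken in each gene record and within 10 kb on either side, which gave 4 SMARCB1 peaks of 4453 in all, 9 H3K27ac peaks of 34073 in cells with an shRNA against SMARCB1 (shSMARCB1), and 10 of 35307 in cells with a control shRNA (shCon). The cells were SK-Hep1, labelled a hepatic adenocarcinoma line, and cells that stably carried an shRNA had been selected with puromycin. The labels do not say which shRNA, if any, the cells of the SMARCB1 library carried. Each group had 1 library, so no value below has a replicate check, no test between shSMARCB1 and shCon was made, and the loss of SMARCB1 itself was not measured in these files.

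SWI/SNF complexes use ATP to move or evict nucleosomes and keep promoters and enhancers open. SMARCB1 is a core subunit of the canonical BAF and PBAF forms, contacts the nucleosome directly, and is lost in malignant rhabdoid tumours. The BCL7 proteins sit with the ATPase subunit and the actin-related proteins of the complex and share a conserved amino-terminal region. BCL7A was found at a chromosome translocation in a Burkitt lymphoma line, and BCL7B lies in the interval deleted in Williams-Beuren syndrome. H3K27ac, acetylation of histone H3 at lysine 27, marks promoters and enhancers in use.

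The depth was 10203310 tags for the shSMARCB1 library, of which peaks took 55.1%, and 13235203 tags for the shCon library, of which peaks took 53.8%. To be called, a peak needed 10 tags in the shSMARCB1 library and 11 in the shCon library, which is 0.98 and 0.831 per 1000000 tags. Relative to depth, a peak therefore had to be stronger in the shSMARCB1 library. Across the genome the peaks covered 70.9 Mb in shSMARCB1 cells and 79.5 Mb in shCon cells, so shSMARCB1 peaks covered 89.2% of the shCon length. Of the defining genes of hepatocytes, SERPINA1 had H3K27ac within 1 kb of an end of its record in both libraries, and ALB, APOA1, TTR, HNF4A and AFP had none in either. Of the endothelial genes PECAM1, VWF, CDH5, KDR and TEK, 0 of 5 had it in either library. For the hepatocyte genes it was 1 of 6. The share of all protein-coding genes with H3K27ac at an end was not computed, so nothing about cell identity is read from these counts.

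The promoters show where SMARCB1 lies at each gene. The sequences below run 5′ to 3′ on the strand of the gene, from 250 bases before to 50 bases after a start site (RefSeq, GRCh38.p14), and the capitals mark bases inside a SMARCB1 peak. BCL7A has 1 start site in the table (plus strand, chr12:122021634-122021933), BCL7B has 2 (minus strand, outer start chr7:73557641-73557940, inner start chr7:73557187-73557486), and BCL7C has 1 (minus strand, chr16:30894028-30894327).
BCL7A: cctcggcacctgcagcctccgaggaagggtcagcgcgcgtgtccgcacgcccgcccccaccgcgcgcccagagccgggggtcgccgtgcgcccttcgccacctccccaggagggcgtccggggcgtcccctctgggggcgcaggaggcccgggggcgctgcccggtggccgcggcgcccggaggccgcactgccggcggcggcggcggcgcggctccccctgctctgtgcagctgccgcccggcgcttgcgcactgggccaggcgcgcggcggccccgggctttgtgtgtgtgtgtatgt
BCL7B outer start: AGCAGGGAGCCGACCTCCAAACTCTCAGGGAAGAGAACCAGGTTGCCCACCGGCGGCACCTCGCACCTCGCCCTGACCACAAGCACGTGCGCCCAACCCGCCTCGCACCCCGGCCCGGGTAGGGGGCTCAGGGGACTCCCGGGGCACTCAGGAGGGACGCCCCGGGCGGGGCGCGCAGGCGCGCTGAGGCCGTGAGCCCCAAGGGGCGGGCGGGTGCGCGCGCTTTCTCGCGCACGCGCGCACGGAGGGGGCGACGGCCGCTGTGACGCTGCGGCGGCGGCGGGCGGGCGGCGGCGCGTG
BCL7B inner start: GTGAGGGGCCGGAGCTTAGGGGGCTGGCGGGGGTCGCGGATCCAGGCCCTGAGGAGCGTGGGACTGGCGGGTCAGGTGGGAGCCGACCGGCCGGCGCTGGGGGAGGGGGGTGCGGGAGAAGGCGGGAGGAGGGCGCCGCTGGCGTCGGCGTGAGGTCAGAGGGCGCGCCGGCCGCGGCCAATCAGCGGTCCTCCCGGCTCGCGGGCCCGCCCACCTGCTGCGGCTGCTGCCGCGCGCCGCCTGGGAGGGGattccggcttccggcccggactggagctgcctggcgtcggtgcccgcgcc
BCL7C: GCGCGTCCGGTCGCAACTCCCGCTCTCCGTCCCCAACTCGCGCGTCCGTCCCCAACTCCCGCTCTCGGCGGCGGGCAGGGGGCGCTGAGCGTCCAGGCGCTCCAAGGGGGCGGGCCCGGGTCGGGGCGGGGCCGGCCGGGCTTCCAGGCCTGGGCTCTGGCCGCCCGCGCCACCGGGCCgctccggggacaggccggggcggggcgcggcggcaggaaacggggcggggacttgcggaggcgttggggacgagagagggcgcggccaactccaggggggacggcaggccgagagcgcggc

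SMARCB1 covered all 300 bases at the outer start of BCL7B and the 250 bases before its inner start, whose own position, 73557236, is next to the edge of the peak. It covered 179 of the 300 bases at BCL7C, on the side away from the gene. At BCL7A it covered 0 bases of this window, because the peak begins inside the gene. H3K27ac covered the whole window at all 4 start sites in both libraries. The windows were rich in G and C, with 80.3% at BCL7A, 77.7% and 79.0% at the outer and inner starts of BCL7B, and 80.3% at BCL7C, against a median of 58.7% over 34961 promoters. They held 44, 44, 39 and 45 CpG dinucleotides in the same order, against a median of 14. Among all promoters the GC shares lay at percentiles 97.8, 95.1, 96.5 and 97.8. The GC box GGGCGG, read on both strands, occurred 2 times at BCL7A, 5 times and 1 time at the outer and inner starts of BCL7B, and 5 times at BCL7C, of which 0, 5, 1 and 3 lay in the SMARCB1 peak. This motif was in 45.0% of all promoters. The AP-1 motif TGACTCA, present in 4.92% of promoters, was in none of the 4 windows. The CCAAT motif, present in 34.6%, was found only at the inner start of BCL7B, as was CCGGAA, the core of ETS factor sites, present in 17.3%. A CACGTG E-box, present in 7.27% of promoters, lay at the outer start of BCL7B alone. These are matches of letters in 300 bases and do not show that a factor binds there.

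SMARCB1 was found at the 5′ end of all 3 genes, in a different position relative to the start site at each. At BCL7A the peak spanned 950 bp (chr12:122022172-122023121), from 288 to 1237 bp inside the gene, and the authors classed it as intron. At BCL7B the peak spanned 965 bp (chr7:73557237-73558201), from 511 bp before to 453 bp after the outer start, and was classed as promoter-TSS. At BCL7C a peak of 500 bp (chr16:30894149-30894648) lay from 571 to 72 bp before the start, and was also classed as promoter-TSS. It lay outside the BCL7C record, within that of the non-coding MIR762HG. So the peak lay past the start site at BCL7A, across it at BCL7B and before it at BCL7C. The BCL7C window also held a peak of 500 bp (chr16:30902043-30902542), classed as exon, inside CTF1, the gene of the cytokine cardiotrophin-1. That peak lay between 7966 and 8465 bp from the BCL7C start and belongs to the window rather than to the gene. The smallest width in the SMARCB1 list was 500 bp, and 66.8% of its peaks had that width, so the BCL7C peaks were at the floor while those of BCL7A and BCL7B were at width percentiles 94.4 and 94.6 of the list.

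**Figure D1:**
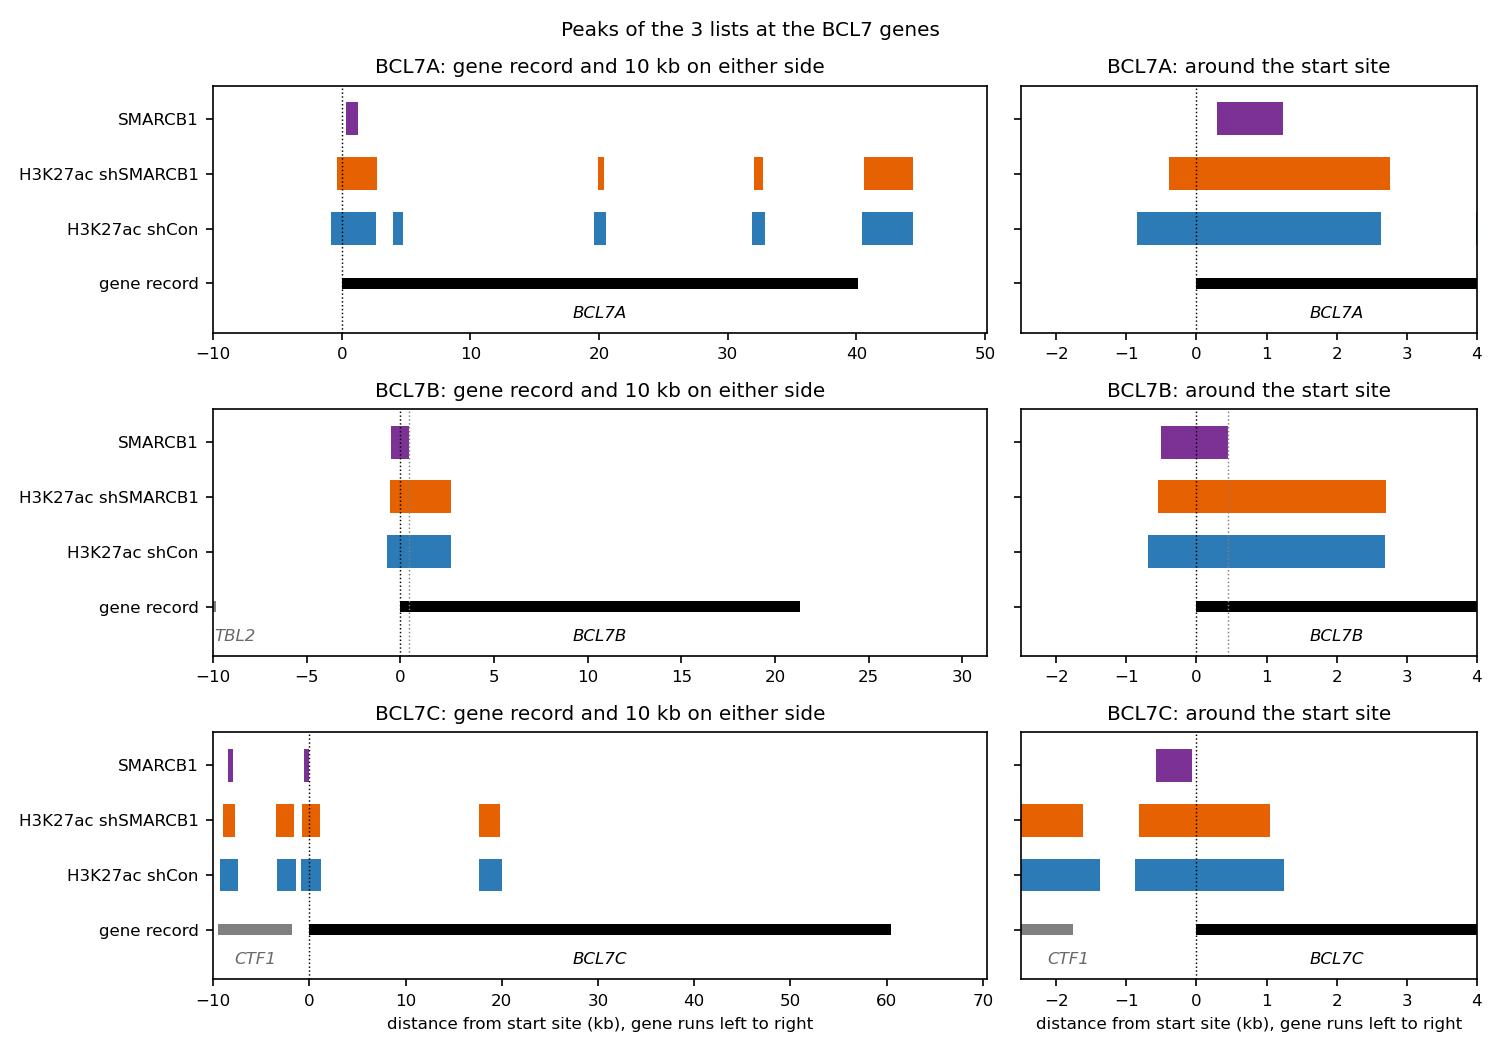
Peaks of SMARCB1, H3K27ac in shSMARCB1 cells and H3K27ac in shCon cells (bars, 1 library each) against distance from the start site in kb, for each BCL7 gene with 10 kb on either side (left) and around its start (right). Black bars are the BCL7 gene records, grey bars are neighbouring protein-coding genes, and dotted lines are start sites. A SMARCB1 peak lies inside acetylated chromatin at the 5′ end of all 3 genes.

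The authors gave each SMARCB1 peak a number whose unit is not stated, which serves here only to rank peaks within the list. The BCL7A peak had a value of 30.6 and the BCL7B peak 27.5, ranks 206 and 244 of 4453, against a list median of 11.6. Both BCL7C peaks had 14.3, a value shared by 111 peaks, with 29.8% of the list above it. BCL7A was rank 49 of 1308 intron peaks, and BCL7B and the start-site peak of BCL7C were ranks 73 and 528 of 1299 promoter-TSS peaks.

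Over all protein-coding genes, 23.2% (95% Wilson interval 22.7 to 23.8%) had a SMARCB1 peak in the record or within 10 kb, against 3 of 3 BCL7 genes. Within 1 kb of a start site the share was 12.4% (11.9 to 12.9%) of the 15812 genes with a start site in the table, against 3 of 3. Since these peaks chose the genes, nothing is read from the difference. The nearest SMARCB1 peaks outside the windows were well beyond the 10 kb limit. The first lay 138718 bp from the BCL7A record, in LRRC43, with a value of 8.45. At BCL7B the next peak was in TBL2, a WD-repeat gene whose record just enters the window, 19865 bp away with a value of 12.7, and at BCL7C it was intergenic, 18609 bp away with a value of 16.9. For H3K27ac the limit mattered once, at a shCon peak of 501 bp that lay 10103 bp beyond BCL7A (chr12:122072147-122072647).

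All 4 SMARCB1 peaks lay whole inside an H3K27ac peak of both libraries. Over the whole list 67.9% (66.5 to 69.2%) of SMARCB1 peaks overlapped H3K27ac of both libraries. Among the 1705 within 1 kb of a coding start site, as the 3 at the BCL7 starts were, it was 96.7% (95.8 to 97.5%), so the overlap at these 3 was the usual state of a SMARCB1 peak at a start site. Of those that overlapped H3K27ac, 87.1% (85.8 to 88.2%) lay whole inside 1 shSMARCB1 peak and 90.7% (89.6 to 91.7%) inside 1 shCon peak. The place of a SMARCB1 peak was measured as the position of its centre from the upstream edge (0%) to the downstream edge (100%) of the H3K27ac peak, in the direction of the gene. At BCL7A it was 36.7% in shSMARCB1 cells and 46.4% in shCon cells, the most central of the genes. At BCL7B it was 16.1% in shSMARCB1 cells and 19.7% in shCon cells, and at BCL7C 26.4% and 26.0%. Within the called peak, acetylation at all 3 genes thus reached further downstream than upstream of SMARCB1, most evenly at BCL7A. At BCL7C this depends on where the peak was cut, since the next acetylated peak, at CTF1, follows on the upstream side. With H3K27ac peaks within 1000 bp of each other merged, an alternative chosen after seeing the data, the BCL7C place was 69.5% in shSMARCB1 cells and 66.0% in shCon cells, and BCL7A and BCL7B kept their values. At BCL7B the shSMARCB1 peak went on for 2248 bp downstream and 40 bp upstream of the SMARCB1 peak, and the shCon peak for 2232 and 183 bp. At BCL7C these margins were 1126 bp downstream and 244 bp upstream in shSMARCB1 cells, and 1317 and 301 bp in shCon cells. At BCL7A they were 1526 and 687 bp in shSMARCB1 cells, and 1395 and 1144 bp in shCon cells.

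Among all SMARCB1 peaks centred within 1 kb of a coding start site the median place was 45.3% in 1656 peaks for shSMARCB1 H3K27ac and 45.6% in 1671 peaks for shCon H3K27ac. The centre lay below 50%, nearer the upstream edge, in 58.8% and 59.0% of them. BCL7B lay at percentile 5.46 of that distribution in shSMARCB1 cells and 5.95 in shCon cells, BCL7C at 15.7 and 14.2, and BCL7A at 33.5 and 52.3. With H3K27ac peaks within 1000 bp merged, BCL7C moved to the other side, at percentiles 89.1 and 86.7. BCL7B then lay at 5.88 and 6.73, and BCL7A at 34.0 and 52.6. Measured from the start site, 40.6% of the 1705 SMARCB1 peaks within 1 kb of one had their centre upstream of it, as at BCL7B (29 bp) and BCL7C (322 bp), and the BCL7A centre was 763 bp downstream. In the CTF1 gene, the SMARCB1 peak lay close to the middle of the acetylated peak, with 135 bp between their centres in shSMARCB1 cells and 147 bp in shCon cells.

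**Figure D2:**
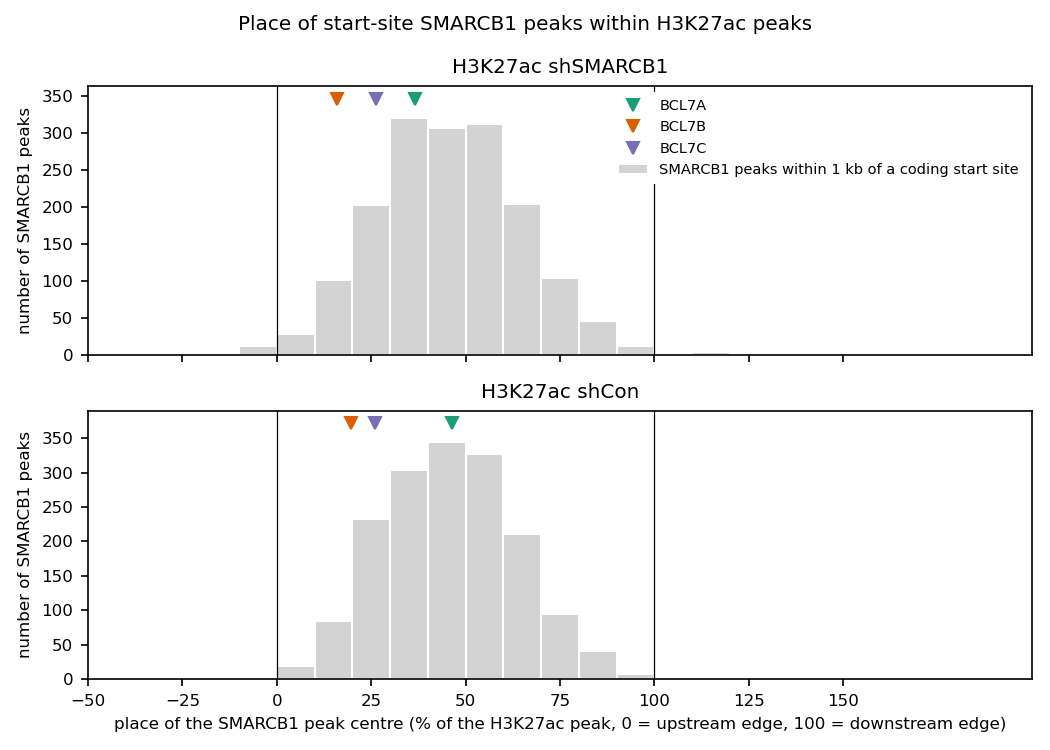
Place of the centre of each SMARCB1 peak within the H3K27ac peak it overlaps, in percent from the upstream to the downstream edge, for shSMARCB1 (top) and shCon (bottom) H3K27ac. Grey bars count all SMARCB1 peaks within 1 kb of a coding start site, and triangles are the BCL7 genes, of which BCL7B is nearest to the upstream edge (16.1% and 19.7%).

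Acetylation remained at the start of every BCL7 gene in shSMARCB1 cells. The start-site peak at BCL7A spanned 3163 bp in shSMARCB1 cells (chr12:122021485-122024647) and 3489 bp in shCon cells (chr12:122021028-122024516). At BCL7B it spanned 3253 bp in shSMARCB1 cells (chr7:73554989-73558241) and 3380 bp in shCon cells (chr7:73555005-73558384). At BCL7C it spanned 1870 bp in shSMARCB1 cells (chr16:30893023-30894892) and 2118 bp in shCon cells (chr16:30892832-30894949). In shSMARCB1 cells these peaks had 90.7%, 96.2% and 88.3% of their shCon width. The median over all 28701 regions with overlapping peaks in both libraries was 90.9%, with quartiles of 78.3 and 102%. The 3 start-site peaks therefore lay at percentiles 49.4, 61.9 and 44.2, in the middle of all regions.

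The rest of the acetylation differed from gene to gene. BCL7B had no H3K27ac peak other than the one at its start. BCL7A had 3 more in shSMARCB1 cells and 4 more in shCon cells. The one that was found in shCon cells alone spanned 760 bp and was centred 4.37 kb inside the gene (chr12:122025877-122026636). Over the whole shCon list 17.7% (17.3 to 18.1%) of peaks had no shSMARCB1 counterpart. A peak deep in the gene spanned 501 bp in shSMARCB1 cells, the smallest width in these lists, and 914 bp in shCon cells (chr12:122041506-122042419). Another spanned 762 bp in shSMARCB1 cells and 948 bp in shCon cells (chr12:122053801-122054748). Beyond the 3′ end, at the non-coding RNA gene LINC02985, a peak spanned 3818 bp in shSMARCB1 cells and 3996 bp in shCon cells (chr12:122062283-122066278). It was the widest acetylated region in any of the 3 windows, wider than the one at the BCL7A start, and held no SMARCB1 peak.

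At BCL7C an internal peak spanned 2195 bp in shSMARCB1 cells and 2437 bp in shCon cells (chr16:30874037-30876473). It overlapped the microRNA gene MIR4519 and the 5′ end of the non-coding MIR762HG, while MIR762 lay under the peak at the BCL7C start. The other 2 peaks of the window were at CTF1. One, without SMARCB1, spanned 1833 bp in shSMARCB1 cells and 1984 bp in shCon cells (chr16:30895458-30897441). The other, with the exon SMARCB1 peak, spanned 1158 bp in shSMARCB1 cells and 1906 bp in shCon cells (chr16:30901487-30903392). This was the largest difference in base pairs among the 9 paired regions, 748 bp.

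All 9 paired regions were narrower in shSMARCB1 cells, and so were 70.0% (69.5 to 70.6%) of all paired regions. Their median was 90.1% of the shCon width, beside 90.9% over all regions, with 6 of the 9 below that median and 3 above it. The 9 include the region at LINC02985 and those at CTF1, which lie outside the BCL7 records. At least 1.5-fold narrower in shSMARCB1 cells were 2 of 9, the internal BCL7A region at 54.8% and the CTF1 region at 60.8%, against 12.8% (12.4 to 13.2%) of all paired regions. They lay at percentiles 5.83 and 8.56 of all regions. In the regions of like shCon width, taken from 10 classes of width, these 2 lay at percentiles 6.43 and 10.0. The 4 paired regions with a SMARCB1 peak had between 60.8 and 96.2% of their shCon width, with a median of 89.5%, and the 5 without one between 54.8 and 95.5%, with a median of 90.1%. The 2 ranges overlap almost entirely. Over all paired regions the medians were 90.9% for the 2978 with a SMARCB1 peak and 90.9% for the 25723 without one. The lower depth and the higher threshold relative to depth of the shSMARCB1 library, given above, go in the same direction as the narrowing. Their part in it was not tested. The fragment length also differed, with 158 bp in the shSMARCB1 library and 190 bp in the shCon library, and its part was not tested either.

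**Figure D3:**
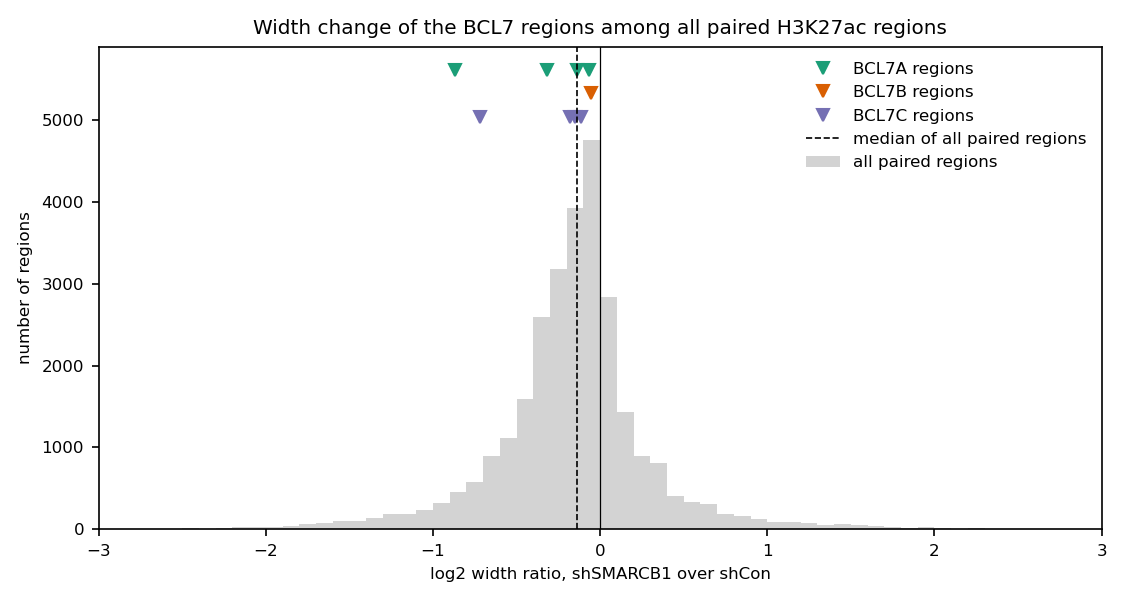
Log2 of the width of each paired H3K27ac region in shSMARCB1 cells over shCon cells, with all 28701 regions as grey bars (7 fall outside the drawn range). Triangles are the regions in the BCL7 windows, those at LINC02985 and CTF1 included. The dashed line is the median of all regions (90.9%), and 7 of the 9 triangles lie within the bulk of the bars near it. Further left lie 1 region inside BCL7A and 1 at CTF1, in the BCL7C window.

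The edges show where the widths differed. Of the 18 edges of the 9 paired regions, 15 lay further in and 3 further out in shSMARCB1 cells, with a median inward shift of 150 bp. Over 27345 regions with 1 peak in each library, 65.9% of edges lay further in, with a median of 80 bp. At the BCL7A start the upstream edge lay 457 bp further in and the downstream edge 131 bp further out, so the peak was displaced into the gene as well as narrower. At the BCL7B start the upstream edge lay 143 bp further in and the downstream edge 16 bp further out. At the BCL7C start most of the difference was downstream, with 191 bp there and 57 bp upstream. The CTF1 region with SMARCB1 was shorter at both edges, by 386 and 362 bp. The downstream edge thus lay further out at the starts of BCL7A and BCL7B and further in at the start of BCL7C. With 1 library per group, shifts of this size cannot be set against a spread.

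Summed over each window, H3K27ac covered 8244 bp in shSMARCB1 cells and 10107 bp in shCon cells at BCL7A, or 81.6%. At BCL7B it covered 3253 bp in shSMARCB1 cells and 3380 bp in shCon cells, or 96.2%. At BCL7C it covered 7056 bp in shSMARCB1 cells and 8445 bp in shCon cells, or 83.6%. The BCL7A window includes the peak at LINC02985 beyond its 3′ end, with 3818 bp in shSMARCB1 cells and 3996 bp in shCon cells. The BCL7C window includes the acetylated peaks at CTF1. With windows of 1 kb the values were 73.0% at BCL7A, 96.2% at BCL7B and 89.2% at BCL7C. Covered length was lower in shSMARCB1 cells in 3 of 3 genes, and in 76.6% (75.9 to 77.3%) of the 14773 protein-coding genes with H3K27ac in both libraries. None of the 3 passed 1.5-fold, as 9.80% (9.33 to 10.3%) of all genes did in this direction. The median over all genes was 88.9%, with quartiles of 78.7 and 99.1%, and BCL7A, BCL7B and BCL7C lay at percentiles 31.1, 69.0 and 35.8. When shSMARCB1 lengths were divided by the genome-wide ratio of 89.2%, BCL7B turned to 108% of shCon. Per length of window, the order was BCL7A, BCL7C and BCL7B in both libraries. Coverage was 13.7, 8.77 and 7.87% of the window in shSMARCB1 cells and 16.8, 10.5 and 8.18% in shCon cells. These shares include the peaks at LINC02985 and CTF1, and the order was not recomputed without them. With 1 library per group, the difference between neighbours in that order cannot be set against a spread.

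The other SWI/SNF subunit genes give the setting for the family. Of 25 genes, 9, or 36%, had a SMARCB1 peak in the record or within 10 kb, against the 23.2% of all genes and 3 of 3 BCL7 genes. Of the 21 with a start site in the table, BICRAL and the PBAF gene BRD7 had a SMARCB1 peak within 1 kb of it, or 9.52%, close to the 12.4% of all genes. H3K27ac was present in both libraries at 24 of the 25, all but the neuronal actin-like gene ACTL6B. Over all protein-coding genes it was present in both at 14773 of 19839. Covered length in shSMARCB1 cells was lower at 18 of the 24 subunit genes, or 75%, beside 76.6% of all genes. It was higher at 6, and the median over the 24 was 91.1% of shCon. The median was 84.1% for the 9 with a SMARCB1 peak in the window and 94.9% for the 15 without one, given as a description with no test. Across the genome the 4471 protein-coding genes with a SMARCB1 peak in the window and H3K27ac in both libraries had a median of 88.5%. All 14773 protein-coding genes with H3K27ac in both libraries, the 4471 among them, had 88.9%. The genes without a SMARCB1 peak were not summarised apart, so the split made among the subunits was not made there. Past 1.5-fold lay DPF1, a neuronal PHD finger subunit (55.6%), and PBRM1, the polybromo subunit of PBAF (66.5%), on the lower side and SMARCD1, a BAF60 subunit (156%), on the higher side. The lower side thus held 2 of 24, beside 9.80% of all genes. The share of all genes on the higher side was not counted. Longer genes have wider windows, and these counts were not matched on gene length. SMARCB1 itself, the targeted gene, had 8110 bp in shSMARCB1 cells and 8958 bp in shCon cells and no SMARCB1 peak, but an shRNA acts on the transcript, so this does not check the knockdown.

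**Figure D4:**
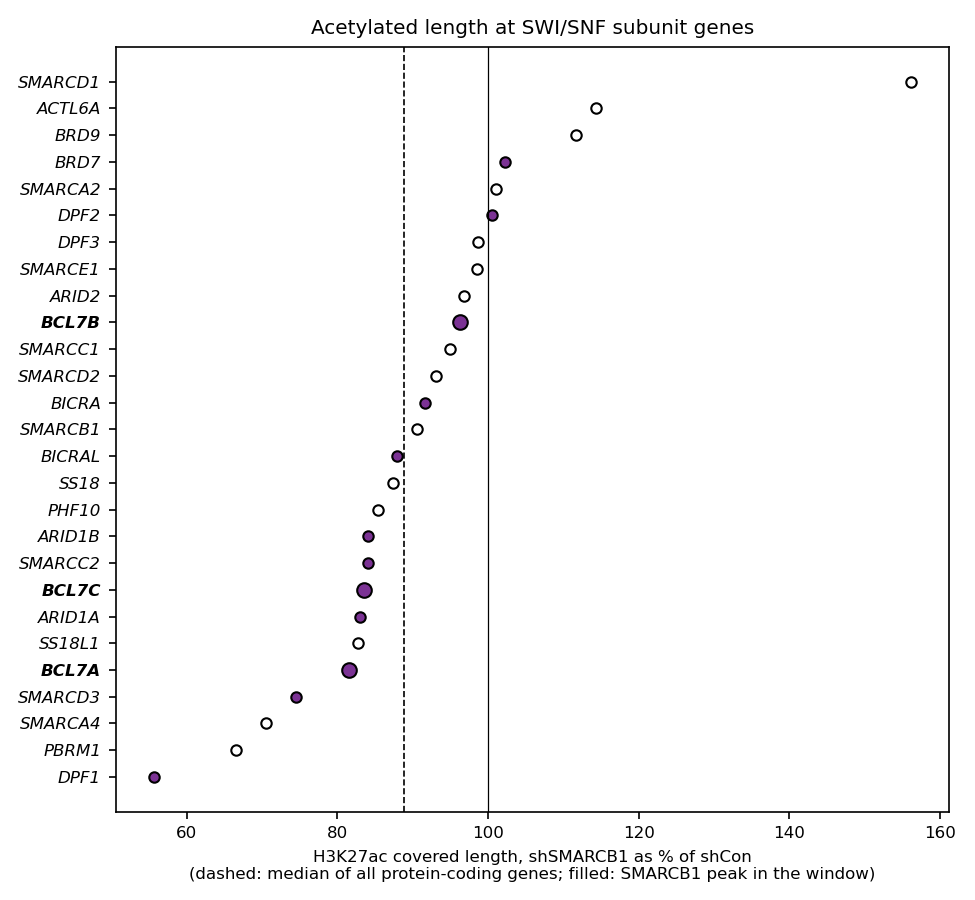
H3K27ac covered length in shSMARCB1 cells as a percentage of shCon cells for the 27 SWI/SNF subunit genes with H3K27ac in both libraries, filled where a SMARCB1 peak lies in the record or within 10 kb. The BCL7 genes (large symbols, bold) lie between 81.6 and 96.2%, within the range of the other subunits and on both sides of the median of all protein-coding genes (dashed line, 88.9%).

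Likeness to the BCL7 genes was measured as the sum of the absolute log2 ratios of the 3 covered lengths (SMARCB1, shSMARCB1 H3K27ac and shCon H3K27ac), with 500 bp added to each length. By this measure BICRAL, a subunit of the non-canonical complex, which lacks SMARCB1, was nearest to BCL7A (0.52) and to BCL7C (0.93). It had 1000 bp of SMARCB1 peaks, 10176 bp of H3K27ac in shSMARCB1 cells and 11578 bp in shCon cells. The next nearest to BCL7A was BICRA, a related subunit of the same complex (1.46), and to BCL7C it was SMARCD3, another BAF60 subunit (1.32). DPF2, a subunit of canonical BAF, was nearest to BCL7B (0.71), with 500 bp of SMARCB1 peaks, 3534 bp of H3K27ac in shSMARCB1 cells and 3518 bp in shCon cells, followed by SMARCD3 (1.17). Each measure rests on 3 libraries. It includes the length of the SMARCB1 peaks, which chose the BCL7 genes, so nothing is read from likeness in that part. At BCL7A the lengths include the peak at LINC02985, and at BCL7C those at CTF1.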

How the data were processed

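The measurements are ChIP-seq peaks of SMARCB1 and H3K27ac from SK-Hep1 cells. The submitters' processing notes name Bowtie2, HOMER and hg38, without versions. The H3K27ac peaks come from HOMER findPeaks in histone style, run on each library against the same control input with a required 4-fold signal over it, per the file headers. The deposited score is the same for every H3K27ac peak, so width was the measure of size. For the SMARCB1 list, neither caller settings nor depth are stated in the sources used. An input library is labelled and was not analysed here.

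Peaks on other sequences than the autosomes and X, 3 in each H3K27ac list, were dropped. Peaks overlapping by at least 1 base were joined into regions, checked with bedtools 2.31.1. Positions are 1-based. Gene records and promoters came from RefSeq tables of GRCh38.p14, without records on unplaced or alternate sequences, and start sites were used for 15812 genes. The code was tested on simulated peaks. Intervals are 95% Wilson intervals and cover counting error only. In percentiles, ties count as 0.5. Software was matplotlib 3.10.9, SciPy 1.17.1, pandas 2.3.3 and NumPy 2.4.6 under Python 3.11.15.

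The members, lists and alternatives were chosen with earlier results of these data known. Named were the BCL7 genes, protein-coding genes in their windows, SMARCB1 and, for each BCL7 gene, the 2 most similar of 25 other subunits. BRD7, ACTL6B, DPF1, PBRM1 and SMARCD1, the non-coding genes in the windows and genes at the nearest outer peaks were named after their values were seen. The alternatives covered the window, overlap, merging of peaks, wider H3K27ac peaks, higher SMARCB1 values and scaling.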

Additional observations from a re-analysis of the deposited data

How the results depend on the processing

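Of 47 recomputed values, 44 kept their direction, where they had one, and differed from the value reported by no more than 1.5-fold. The place of SMARCB1 at BCL7C turned to the downstream side of the acetylated peak, at 69.5% in shSMARCB1 cells and 66.0% in shCon cells, when H3K27ac peaks within 1000 bp were merged, an alternative chosen after seeing the data. The other exception was the covered length at BCL7B, which turned to 108% of shCon when divided by the genome-wide ratio of covered lengths. With the same scaling the 3 genes together had 94.8%, against 84.6% without it, and with windows of 5 and 1 kb they had 86.9 and 83.3%. By gene, the windows of 5 and 1 kb gave 81.6 and 73.0% at BCL7A, and 90.2 and 89.2% at BCL7C. BCL7B had 96.2% with both. With only the wider 50% of each H3K27ac list, BCL7A had 93.3% and BCL7C 69.8%, so the order of these 2 genes was reversed. The median width of the paired regions was 99.1% when divided by the median of all paired regions. The number of them narrower in shSMARCB1 cells then fell from 9 to 6, which is at the 1.5-fold limit. Some of the 44 values could not have changed. BCL7B had 1 H3K27ac peak in each library, so other windows, wider peaks and merging left its covered length at 96.2%. Scaling cannot alter the number of paired regions. All 3 genes kept a SMARCB1 peak with windows of 5 and 1 kb, where the CTF1 peak was lost from the count of 4. No paired analysis was possible because each group had 1 library. With no peak height deposited, changes in signal within a peak of constant width are not visible, and the depth of the SMARCB1 list limits what its gaps can show.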
